A study of Neurospora crassa with 24 samples.

Results

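Transcript levels were described here for 8 genes of *Neurospora crassa* that carry a glucose signal through G proteins, cAMP and the SNF1/AMPK kinase, taken by locus from the 9730 loci of the tables. They were *gpr-4* (NCU06312), *gna-1* (NCU06493), *gna-2* (NCU06729), *gna-3* (NCU05206), *cr-1* (NCU08377), *pkac-1* (NCU06240), *mcb* (NCU01166) and *prk-10* (NCU04566), the last being the fungal counterpart of yeast *snf1*. RNA-Seq was performed on 3 strains, the WT reference strain and the deletion mutants Δ*rco-3* (which lacks a glucose sensor of the plasma membrane) and Δ*col-26* (which lacks a zinc-finger transcription factor of glucose sensing). All cultures had a first phase of 16 h on 2% sucrose at 28 °C, after which they spent 1 h in medium with no carbon source or with 0.05, 0.5 or 2% glucose. Each strain and medium had 2 libraries, 24 in all, from duplicate cultures. Each mutant was 1 stock-centre strain of mating type a, so the deletion cannot be told apart from other differences between that strain and the WT.

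In fungi, GPR-4 is a G-protein-coupled receptor for carbon sources, GNA-1, GNA-2 and GNA-3 are Gα subunits, and CR-1 is the adenylate cyclase that makes cAMP. Cyclic AMP frees the catalytic subunit of protein kinase A (PKA), here *pkac-1*, from the regulatory subunit, here *mcb*. The SNF1 kinase, whose catalytic α-subunit is encoded by *prk-10*, is active when glucose is scarce and allows growth on other carbon sources. Both routes are also regulated at the protein level, which was not measured here.

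The labels were checked with the deleted genes. *rco-3* was listed at 0 FPKM in all Δ*rco-3* libraries against 5.97 to 21.03 FPKM in the WT, and *col-26* was at 4.91 to 10.6 FPKM in Δ*col-26* against 16.7 to 39.6 in the WT, so its reads were reduced but not lost. FPKM (fragments of a transcript, relative to its length and to library size) summed to 565181 to 616209 per library. Low values did not come in clean steps of 1 fragment (49.9% were whole numbers of steps to within 0.15, where 30% would be if they fell anywhere), so the depth of the libraries could not be read from the values and is unknown here. The mycelial markers *act*, *tub-2* and *chs-1* were present in all libraries, with summed levels of 992 to 1803 FPKM. In the WT these sums were 1029 to 1047 FPKM without carbon and 1033 to 1318 on glucose. They were 1368 to 1374 and 1676 to 1803 in Δ*rco-3*, and 992 to 997 and 1543 to 1637 in Δ*col-26*. The 5 conidial markers (*eas*, *con-6*, *con-8*, *con-10*, *con-13*) summed to 5.05 to 33.4 FPKM in the WT on glucose, where *con-13* was at 0 in 6 libraries, and to 352 to 361 without carbon. In Δ*rco-3* they summed to 587 to 906 FPKM on glucose and 4622 to 4799 without carbon, and in Δ*col-26* to 368 to 743 and 4830 to 5051. These markers therefore move with both comparisons described here, and their part in the results was not tested. In whole mycelium, fewer cells of a type and less RNA per cell cannot be told apart.

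Differences were tested with limma on log2(FPKM + 1) over the 7981 genes with a mean of at least 1 FPKM in at least 1 group, and a difference passed when its Benjamini-Hochberg adjusted p was below 0.001. A differentially expressed gene (DEG) in addition changed by at least 1 on the log2 scale and exceeded 20 FPKM in a group compared. All 8 genes were tested, *gpr-4* only because it reached 1 FPKM in some groups. The median of all genes was itself shifted in many comparisons, by 0.31 between starved and fed WT and by 0.21 to 0.50 between Δ*rco-3* and the WT, so small rises are also given after median-ratio scaling of the libraries, which removes most of that shift.

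The levels of the 8 genes spanned a wide range. By median over the 24 libraries, *gna-1* was highest at 78.2 FPKM, followed by *prk-10* at 43.5, *mcb* at 38.8, *pkac-1* at 38.1, *gna-2* at 27.5, *cr-1* at 23.3 and *gna-3* at 12.5, while *gpr-4* lay at 0.85 FPKM. The widest relative spread between the group means was that of *gpr-4*, 5.78-fold at very low level, and then that of *prk-10*, 5.08-fold. The adenylate cyclase *cr-1* and the PKA subunit *pkac-1* moved least, by 1.69-fold and 1.78-fold between their lowest and highest groups.

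**Figure D1:**
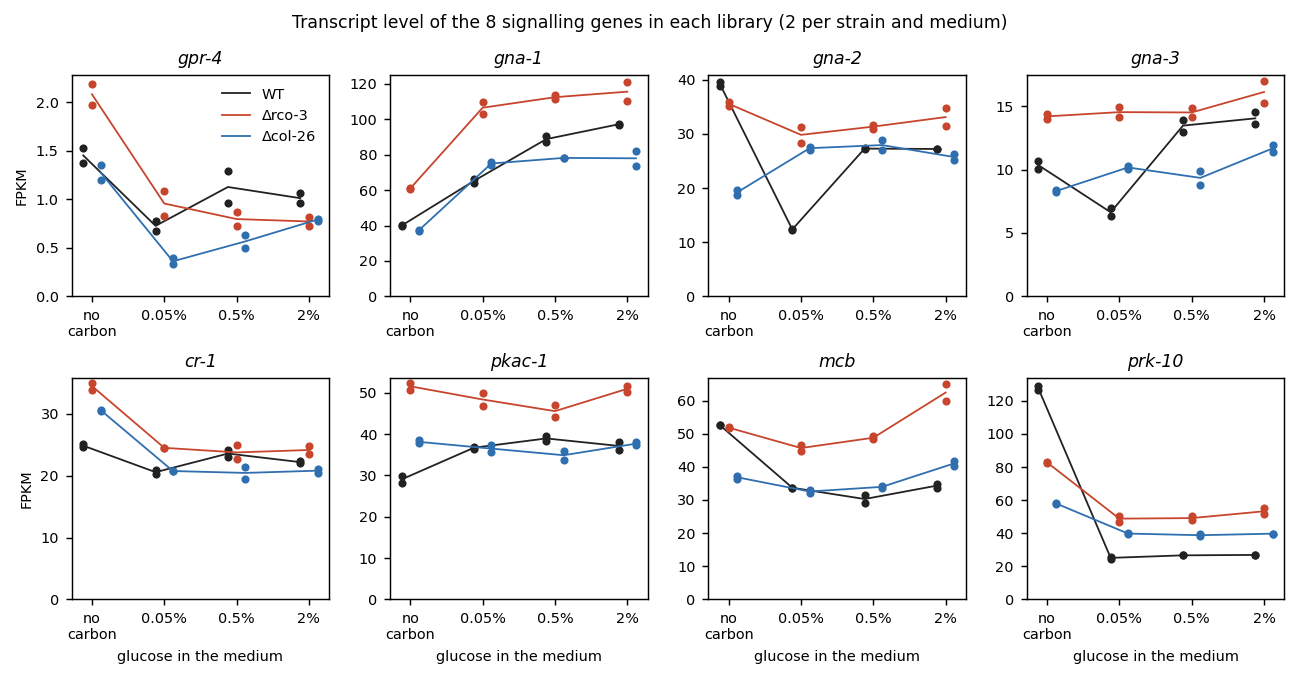
FPKM (y axis, from 0) of each gene in the 4 media (x axis) for the 3 strains, WT in black, Δ*rco-3* in red, Δ*col-26* in blue. Points are single libraries, 2 per strain and medium, and lines join their means. *prk-10* stands at 126 and 129 FPKM in the starved WT and at 83.0 FPKM or less in all other libraries, and *gna-2* and *gna-3* dip at 0.05% glucose in the WT.

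*prk-10* showed the largest change of the 8 genes. The gene lies on chromosome V from 1659170 to 1662912 (NC12 build) and overlaps no other locus. In the WT it stood at 126 and 129 FPKM without carbon, and at 24.7 and 25.5, 26.7 and 26.6, and 26.7 and 27.1 FPKM at 0.05, 0.5 and 2% glucose. The high level was thus confined, among the WT media, to the complete absence of carbon. The libraries at 0.05% glucose lay slightly under those at 2% glucose, and that pair of media was not tested. Between 0.05 and 0.5% glucose the log2 fold change was −0.08, and 0.15 after median-ratio scaling, and neither passed. Starvation *vs.* 2% glucose raised *prk-10* 4.74-fold in the WT (log2 fold change 2.20 ± 0.04 SE, n = 2 per group, limma adjusted p = 6.96e-21), and 90.6% of all genes tested had a lower value. After median-ratio scaling the change was 1.87.

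In both mutants the range of *prk-10* was compressed from both ends. Δ*rco-3* had 82.6 and 83.0 FPKM without carbon and 47.0 to 55.1 on glucose. Δ*col-26* had 57.9 and 58.3 FPKM without carbon and 38.2 to 39.9 on glucose. The libraries of each mutant did not overlap those of the WT in any medium, but 86.1% to 92.4% of all genes showed no overlap in these comparisons either. Starvation *vs.* 2% glucose raised the gene 1.46-fold in Δ*col-26* (0.54 ± 0.04) and 1.56-fold in Δ*rco-3* (0.63 ± 0.04). After median-ratio scaling both rises passed, at 0.45 and 0.36, so the order of the mutants depends on the scale. The difference of these responses from that of the WT was −1.58 for Δ*rco-3* (95% interval −1.69 to −1.46, limma adjusted p = 4.13e-15) and −1.67 for the other mutant (−1.78 to −1.55, 1.23e-15). Both differences met the DEG thresholds, as did those of 13.7% and 15.1% of all genes.

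On glucose the mutants held more *prk-10* transcript than the WT in each of the 3 media. The ratio to the WT was 1.46 to 1.58 in Δ*col-26* and 1.84 to 1.98 in Δ*rco-3*, and all 6 differences passed both as deposited and after median-ratio scaling, where they were 0.34 to 0.49 and 0.34 to 0.67 on the log2 scale. Without carbon the order was inverted, with 0.455 times the WT level in Δ*col-26* and 0.649 times in Δ*rco-3* (log2 fold change −1.12 and −0.62, and −0.98 and −0.85 after scaling). Between the mutants, Δ*rco-3* was higher in all media as deposited, by 0.29 to 0.50 on the log2 scale, but after scaling only the difference at 2% glucose passed (0.22), and the others were 0.13 without carbon, 0.0021 at 0.05% and 0.08 at 0.5% glucose.

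The 3 Gα genes did not respond alike. *gna-1*, whose product is the Gα partner of GPR-4, was the most abundant and fell on starvation in each strain. In the WT its levels rose with glucose, from 40.0 and 39.9 FPKM without carbon through 64.1 and 66.4 at 0.05% and 87.2 and 90.5 at 0.5% to 97.0 and 97.4 at 2%, with no overlap between neighbouring media. Between 0.05 and 0.5% glucose 86.6% of all genes showed no overlap in the WT either. The other neighbouring pairs of media were not tested, and their share over all genes was not determined. The libraries of the mutants showed a drop without carbon and little spread on glucose: Δ*rco-3* had 60.8 and 61.2 FPKM without carbon and 103.2 to 121 with glucose, and Δ*col-26* had 37.1 and 37.6, and 73.6 to 82.4. Starvation lowered *gna-1* by 1.26 on the log2 scale in the WT (fold change −1.26 ± 0.05, adjusted p = 1.43e-15), and the changes were −1.04 in Δ*col-26* and −0.91 in Δ*rco-3*. Median-ratio scaling made each fall larger (−1.59, −1.13 and −1.18). The gene maps to chromosome III, 1614044 to 1617257.

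The step from 0.5 to 0.05% glucose lowered *gna-1* in the WT by 0.44 on the log2 scale (−0.44 ± 0.05), or −0.20 after median-ratio scaling. The change was −0.08 in Δ*rco-3* (95% interval −0.18 to 0.02) and −0.06 (−0.16 to 0.04) in the other mutant, and neither passed. The difference between strains passed as deposited (0.36 and 0.38) but not after scaling (0.05 and 0.10, limma adjusted p = 0.49 and 0.15), so it depends on the scale.

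*gna-2* and *gna-3*, which encode the other Gα subunits, shared a dip at 0.05% glucose in the WT. *gna-2* (chromosome V, 4415676 to 4419047) had 39.6 and 38.8 FPKM without carbon, 12.5 and 12.3 at 0.05% glucose, 27.1 and 27.4 at 0.5% and 27.1 and 27.3 at 2%. *gna-3* (chromosome IV, 5751253 to 5754729) had 10.1 and 10.6, 6.32 and 6.94, 12.99 and 13.95, and 13.6 and 14.5 FPKM in the same order. The lowest medium was thus neither the starved nor the richest one. From 0.5 to 0.05% glucose the log2 fold change was −1.08 ± 0.05 for *gna-2* (limma adjusted p = 1.48e-13) and −0.92 ± 0.06 for *gna-3* (8.51e-11), and only 6.70% and 10.1% of all genes had a lower value. After median-ratio scaling the changes were −0.86 and −0.72, and both passed.

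Neither mutant showed this dip. At 0.05 and 0.5% glucose *gna-2* was at 27.1 to 28.8 FPKM in Δ*col-26* and 28.4 to 31.7 in Δ*rco-3*. *gna-3* was at 8.81 to 10.3 and 14.2 to 14.9 FPKM in the same libraries. The changes were −0.03 and −0.07 for *gna-2* and 0.11 and 0.0022 for *gna-3*, with 95% intervals that stayed between −0.18 and 0.25. The difference from the WT response was 1.01 (Δ*rco-3*) and 1.05 (Δ*col-26*) for *gna-2* and 0.93 and 1.04 for *gna-3*, with limma adjusted p from 9.36e-11 to 2.54e-08. After median-ratio scaling these differences were 0.72, 0.79, 0.65 and 0.79 and still passed.

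Starvation separated the strains for *gna-2* in a further way. Against 2% glucose it rose in the WT by 0.51 (0.18 after median-ratio scaling, limma adjusted p = 0.0013, which no longer passed), it was at 35.9 and 35.2 FPKM against 34.8 and 31.5 in Δ*rco-3* without passing (0.10), and it fell in Δ*col-26* from 25.2 and 26.3 to 18.7 and 19.7 FPKM (−0.40). The Δ*col-26* response differed from that of the WT by −0.91 (limma adjusted p = 5.32e-10), or −0.67 after scaling. Without carbon Δ*col-26* held 0.490 times the *gna-2* level of the WT. *gna-3* fell on starvation in the WT (−0.41, or −0.72 after scaling) and Δ*col-26* (−0.45) and had −0.17 in Δ*rco-3*, which did not pass as deposited but did after scaling (−0.42), and neither mutant's response differed from the WT's at the threshold (0.24 and −0.04).

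The adenylate cyclase gene *cr-1* (chromosome I, 5564501 to 5573857) was nearly flat on glucose, at 19.4 to 24.9 FPKM in all 18 libraries with glucose. Without carbon it reached 24.6 and 25.1 FPKM in the WT, 30.6 and 30.7 in Δ*col-26*, and 35.1 and 33.9 in Δ*rco-3*. The starved mutant libraries were above all other *cr-1* values. The rise over 2% glucose passed in both Δ*col-26* (0.53 ± 0.05) and Δ*rco-3* (0.50 ± 0.05), but not in the WT (0.16 ± 0.05, limma adjusted p = 0.0055), where scaling turned the sign without a call (−0.17). After scaling the rises were 0.45 and 0.23, and both still passed. The Δ*rco-3* response exceeded that of the WT by 0.34 as deposited and 0.40 after median-ratio scaling, and the Δ*col-26* response by 0.38 and 0.62, and all 4 values passed. The first of these, as deposited, lost its call (0.31 to 0.33) when replicate 1 of the starved WT, of the WT at 2% glucose or of starved Δ*rco-3*, or replicate 2 of Δ*rco-3* at 2% glucose, was left out.

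Of the PKA genes, *mcb* and *pkac-1* moved in opposite directions in the starved WT. The second catalytic subunit gene, *pkac-2* (NCU00682), rose there by 0.96 against 2% glucose (0.62 after median-ratio scaling). The regulatory subunit gene *mcb* had 52.6 and 52.5 FPKM without carbon and 29.0 to 35.0 on glucose. The catalytic subunit gene *pkac-1* had 29.9 and 28.2 FPKM without carbon and 36.2 to 39.6 on glucose. Against 2% glucose the changes were 0.60 ± 0.04 for *mcb* and −0.34 ± 0.04 for *pkac-1*, and they were 0.27 and −0.67 after median-ratio scaling. *pkac-1* lies on chromosome III from 2018007 to 2021587. *mcb* (chromosome V, 3105178 to 3108879) shares 1006 bp of its span with NCU01167, which was at 4.0 to 14.5 FPKM, and reads of that stretch cannot be assigned to either gene with certainty.

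The opposite movement of *mcb* and *pkac-1* was not seen in the mutants. *mcb* did not rise on starvation in Δ*rco-3*, with 51.7 and 52.0 FPKM without carbon and 65.1 and 59.7 at 2% glucose (−0.26 ± 0.04, a fall that passed), nor in Δ*col-26*, with 36.4 and 37.3 against 41.8 and 40.3 (−0.15, not passed, and −0.24, passed, after median-ratio scaling). *pkac-1* was at 52.4 and 50.7 FPKM without carbon and 51.7 and 50.2 at 2% glucose in Δ*rco-3*, and at 37.7 and 38.5, and 37.3 and 38.1 in Δ*col-26*. Its change did not pass in either as deposited (0.02 in each), but after scaling it was −0.25 in Δ*rco-3*, a fall that passed, and −0.07 in Δ*col-26*. The difference from the WT response was −0.86 and −0.75 for *mcb* and 0.36 and 0.36 for *pkac-1*, with limma adjusted p at or below 4.54e-05, and all 4 passed after scaling as well (−0.80, −0.51, 0.42 and 0.60). On 0.5 and 2% glucose *mcb* was higher in Δ*rco-3* than in the WT by 0.67 and 0.84 (0.39 and 0.55 after scaling), while at 0.05% glucose 0.43 became −0.17. Without carbon the *mcb* difference between Δ*rco-3* and the WT was −0.02, not passed, and −0.25, passed, after scaling. *pkac-1* was higher in Δ*rco-3* in all 4 media as deposited, by 0.22 to 0.81, but after scaling this passed only without carbon (0.57), and at 0.05% glucose the direction was reversed (−0.21). At 0.5% glucose its call also rested on replicate 2 of either strain (0.20 without that of the WT, 0.17 without that of the mutant).

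The receptor gene *gpr-4* (chromosome IV, 2953113 to 2956776) was barely detected. It had 1.37 and 1.53 FPKM in the starved WT, 1.20 and 1.35 in starved Δ*col-26*, and 2.19 and 1.97 in starved Δ*rco-3*, against 0.33 to 1.29 in all libraries with glucose. Its highest medium was the one without carbon in each strain, although the lowest starved library of Δ*col-26* lay under the highest WT library at 0.5% glucose. The rise over 2% glucose passed in Δ*rco-3* (0.80 ± 0.10 on the log2 scale of FPKM + 1, which understates changes at this level), as deposited and after median-ratio scaling (0.59) but not after quantile normalization (0.31, limma adjusted p = 0.0074). The values in the WT and Δ*col-26* were 0.29 and 0.35 and did not pass. Its span overlaps that of NCU06311 by 31 bp, and that neighbour was at 37.9 to 130 FPKM, so a few misassigned reads would weigh on *gpr-4*.

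Counted together, 6 of the 8 genes passed between no carbon and 2% glucose in the WT, 3 higher and 3 lower, where 80.9% of all genes did (49.9% higher, 31% lower), so the count alone does not set the genes apart. In Δ*col-26* it was 5 of 8, 2 higher and 3 lower (76.7% of all genes, 42.5% higher and 34.2% lower). In Δ*rco-3* it was also 5 of 8, 3 higher and 2 lower (76.9%, 49.8% and 27.1%). After median-ratio scaling the higher and lower genes in Δ*rco-3* were 3 and 4 (37.7% and 35.5% of all genes) in place of 3 and 2. DEGs were *gna-1* and *prk-10* in the WT (2 of 8, 29.3% of all genes), *gna-1* in Δ*col-26* (20.8%) and none in Δ*rco-3* (19.9%), where *gna-1* became one after scaling (−1.18). The median absolute change of the 8 genes was 0.46 in the WT, 0.43 in Δ*col-26* and 0.38 in Δ*rco-3*, against 0.87, 0.69 and 0.66 over all genes. The typical starvation change of the 8 genes was thus smaller than that of the typical gene in each strain.

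Between 0.05 and 0.5% glucose the strains differed in count. The 3 Gα genes passed in the WT (3 of 8, all lower at 0.05%, while 62.2% of all genes passed and 41.9% were lower), *gna-2* being the DEG (7.47%). After median-ratio scaling none was a DEG (8.42% of all genes were) and *mcb* passed too, with a higher level (0.39), while 58.8% of all genes passed. In Δ*rco-3* none of the 8 passed by limma (13.9% of all genes did), and 1 had an unadjusted p under 0.05 (43.1% of all genes did). In Δ*col-26* none passed (9.02% of all genes did), and none had an unadjusted p under 0.05 (36.4% of all genes did). The test of the difference between strains passed for the 3 Gα genes with each mutant (3 of 8, all with a higher value in the mutant, against 50.4% and 51.1% of all genes passing and 36.1% and 35.5% higher). After median-ratio scaling it passed for *gna-2* and *gna-3*, higher, with *mcb* lower with both mutants and *prk-10* lower with Δ*rco-3*. On that scale 47.3% of all genes passed with Δ*rco-3* and 45.9% with Δ*col-26*. Between no carbon and 2% glucose that test passed for 6 of 8 genes with Δ*rco-3* (51.5% of all genes) and 5 of 8 with Δ*col-26* (55.2%). All of these comparisons share the WT libraries.

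**Figure D2:**
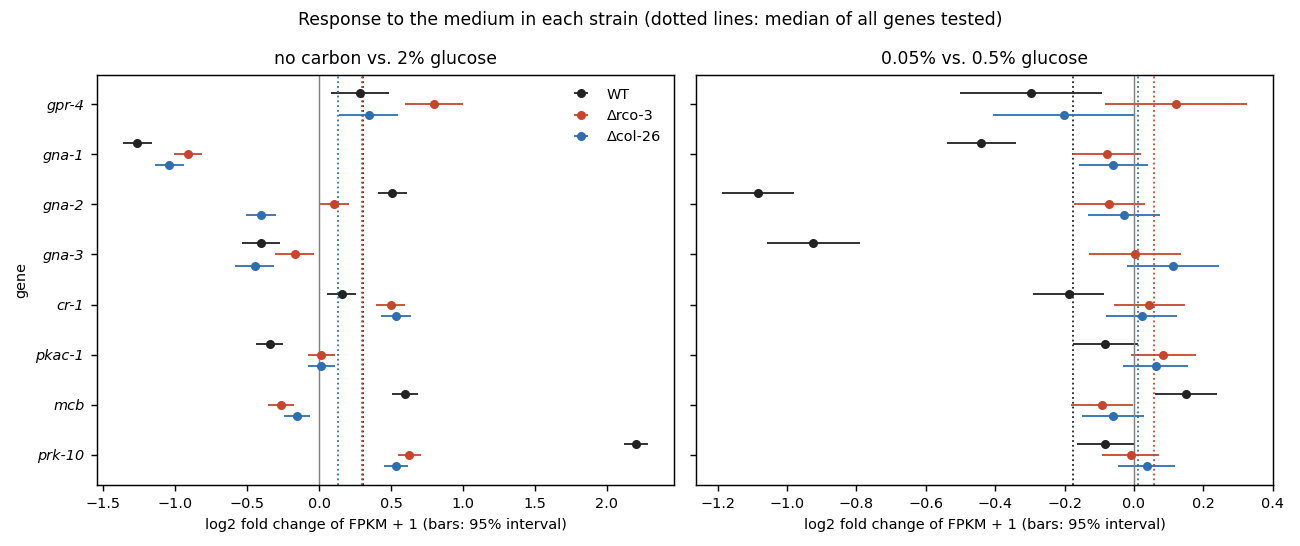
Log2 fold change of FPKM + 1 (x axis) of each gene (y axis) between no carbon and 2% glucose (left) and between 0.05 and 0.5% glucose (right), with 95% intervals, in the 3 strains (2 libraries per group). Dotted lines mark the median of all genes tested in each strain, and the WT values of *prk-10* (2.20, left), *gna-2* and *gna-3* (−1.08 and −0.92, right) stand apart from those of both mutants.

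Over the 4 media, F tests found a change in all 8 genes in the WT (92.7% of all genes), in 7 of 8 in Δ*col-26* (82.8%) and in 6 of 8 in Δ*rco-3* (81.6%). *pkac-1* did not pass in either mutant, nor *gna-3* in Δ*rco-3*. The ratio of the highest to the lowest medium was 3.17 in the WT, 1.45 in Δ*col-26* and 1.19 in Δ*rco-3* for *gna-2*, and in the same order 2.12, 1.41 and 1.14 for *gna-3*. It was 1.73, 1.26 and 1.37 for *mcb*, and 5.08, 1.497 and 1.696 for *prk-10*. For *cr-1* it was 1.21, 1.496 and 1.45, larger in the mutants.

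In the direct comparisons of strains within a medium, 21 of 32 values (8 genes in 4 media) passed between Δ*rco-3* and the WT, 20 of them higher and 1, *prk-10* without carbon, lower. Over all genes 63.4% of such values passed, 48.6% higher and 14.8% lower. With median-ratio scaling 17 passed (54.6% of all), 10 higher (25.8%) and 7 lower (28.9%). With quantile normalization 12 were higher (27.7%) and 6 lower (26.4%), so the excess of higher values in Δ*rco-3* depends on the scale. Between Δ*col-26* and the WT 16 of 32 passed (60.3% of all), 9 higher (33.4%) and 7 lower (26.9%). After median-ratio scaling 7 were higher (29.2% of all) and 15 lower (30%). The DEGs were *gna-2* at 0.05% glucose in each mutant, higher (log2 fold change 1.21 and 1.09), and *prk-10* without carbon in Δ*col-26*, lower. After median-ratio scaling the *gna-2* values were 0.63 and 0.79 and the *prk-10* value was −0.98, which still passed the test but were under the DEG threshold, so none of the 32 values of either mutant was a DEG on that scale. As deposited these were 2 of 32 values in Δ*col-26* (8.66% of all) and 1 of 32 in Δ*rco-3* (7.71%).

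The mutants differed from each other in 27 of 32 values, each higher in Δ*rco-3*, and none was a DEG (2.58% of all were). Over all genes 54.1% passed and 43.8% were higher in Δ*rco-3*. With median-ratio scaling 13 passed (38.9% of all), 12 higher (17.1%) and 1 lower (21.9%). With quantile normalization 20 were higher (21.9%) and 0 lower (15.9%). At 2% glucose the value was 0.59 ± 0.04 for *mcb*, 0.56 ± 0.05 for *gna-1* and 0.41 ± 0.04 for *prk-10*, against a median of 0.16 over all genes, and after median-ratio scaling it was 0.40, 0.37 and 0.22.

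**Figure D3:**
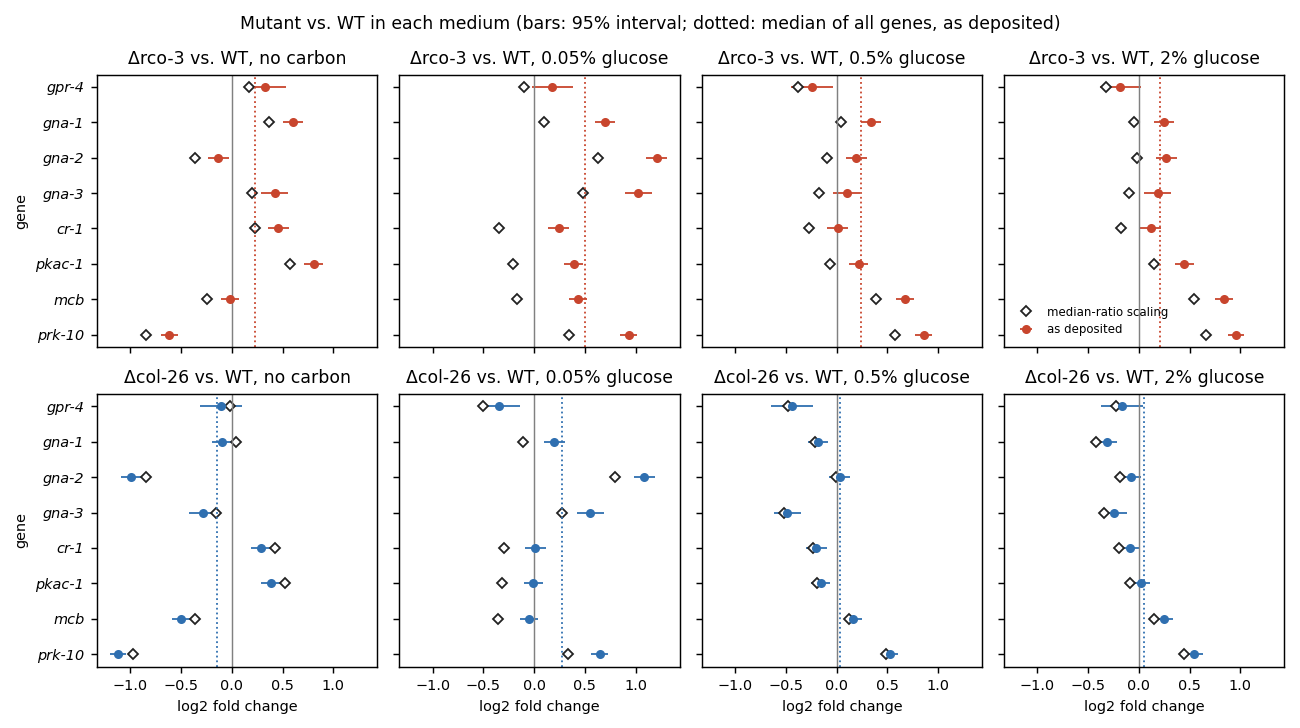
Log2 fold change (x axis) of each gene (y axis) between a mutant and the WT in each medium, with Δ*col-26* in the lower and Δ*rco-3* in the upper row. Filled points are values as deposited with 95% intervals (2 libraries per group), open diamonds the values after median-ratio scaling, and dotted lines the median of all genes as deposited. *prk-10* lies left of 0 without carbon and right of 0 on glucose with both scales, while *gpr-4*, *cr-1*, *mcb* and *pkac-1* cross 0 at 0.05% glucose in Δ*rco-3*.

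Ratios of 2 genes within a library do not change when the whole library is scaled by a single factor, as in median-ratio scaling. Quantile normalization can change such ratios. *gna-1* made up 44.6% and 44.7% of the summed Gα FPKM in the starved WT and 77.3% and 77.6% at 0.05% glucose, with 68.5% to 70.5% at 0.5 and 2%. The share of *gna-2* was 43.4% and 44.2% in the starved WT and 14.3% and 15.0% at 0.05% glucose. In the mutants the share of *gna-2* stayed at 21.1% to 30.1% in Δ*col-26* and 19.4% to 32.4% in Δ*rco-3*, highest without carbon in both. Summed Gα FPKM in the WT was 82.8 to 89.7 without carbon and at 0.05% glucose and 127 to 139 at 0.5 and 2%. Unlike the shares, this sum depends on the scaling of the libraries. Per FPKM of *gnb-1* (NCU00440), another G-protein gene, its WT mean was 1.486 without carbon and 0.959 at 0.05% glucose. At 0.5 and 2% glucose it was 1.378 and 1.401, so only the 0.05% medium was low by this ratio. *gnb-1* itself was lower without carbon than at 2% glucose in the WT (−0.71 on the log2 scale).

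The ratio of *mcb* to *pkac-1* was 1.76 and 1.86 in the starved WT and 0.73 to 0.97 in the 6 WT libraries with glucose. It was 0.86 to 1.12 in Δ*col-26* and 0.90 to 1.26 in Δ*rco-3*, with the highest values at 2% glucose in both mutants, so the starved WT libraries stood above all others for this ratio. Per summed FPKM of *pkac-1* and *pkac-2*, *mcb* was at 0.41 and 0.40 in the starved WT. In the WT on glucose it was at 0.40 and 0.38 at 2%, and at 0.14 to 0.29 at 0.05 and 0.5%. Δ*rco-3* at 2% glucose had 0.72 and 0.68, so with both catalytic genes counted the starved WT did not stand above all others. The ratio of *prk-10* to *snf4* (NCU01471), which encodes the regulatory γ-subunit of the same kinase, was 3.19 and 3.13 in the starved WT and 0.72 to 0.87 on glucose. In Δ*rco-3* it was 1.91 and 1.80 without carbon and 1.12 to 1.36 on glucose, and in Δ*col-26* 2.13 and 2.22, and 1.14 to 1.20. The mutant libraries on glucose were above, and those without carbon below, the WT libraries for this ratio. These ratios were not tested.

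**Figure D4:**
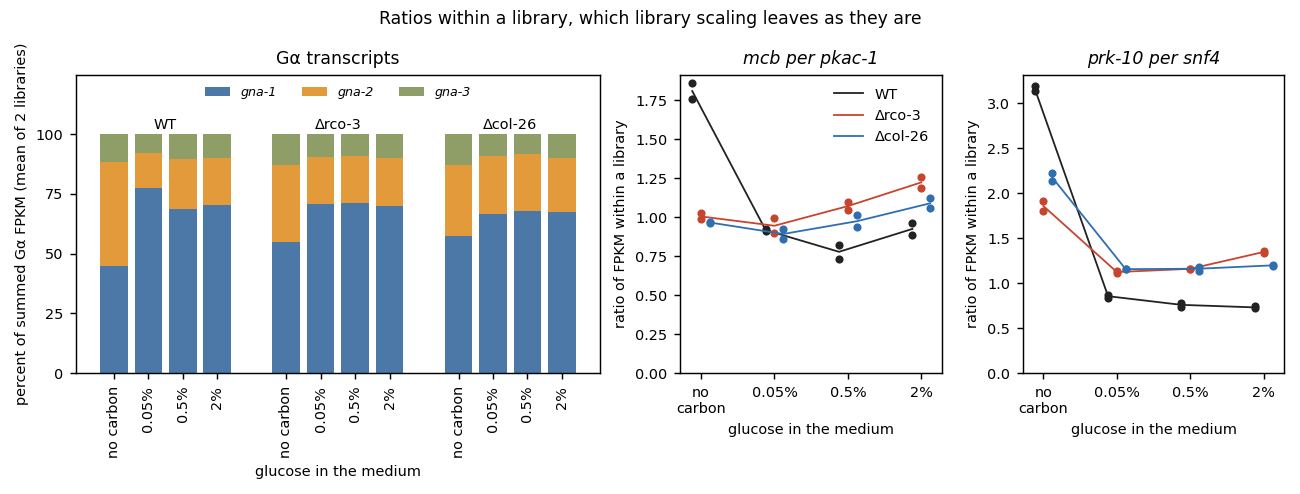
Left, share of each Gα gene in the summed Gα FPKM (y axis, percent; bars are means of 2 libraries) by strain and medium (x axis). Middle and right, FPKM ratio of *mcb* to *pkac-1* and of *prk-10* to *snf4* (y axes, from 0) by medium, with points for single libraries and lines through their means, highest in the starved WT at 1.76 and 1.86, and 3.19 and 3.13.

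Of 26 further genes listed for the route, 20 were matched by their reference name or by the study's own annotation, and tested. In the WT 17 of 20 passed between no carbon and 2% glucose, 8 higher and 9 lower, and 7 were DEGs, against the 80.9% passing, 49.9% higher, 31% lower and 29.3% DEGs over all genes. The median was −0.04, against 0.31 over all genes. Between 0.05 and 0.5% glucose 12 of 20 passed in the WT, 6 in each direction (62.2% of all genes, 20.3% higher and 41.9% lower), and 1 of 20 in each mutant. After median-ratio scaling 14 passed there, 11 of them higher (58.8% and 30.2% of all genes). Between Δ*rco-3* and the WT 17 of 20 passed without carbon, 14 of them higher (57% and 43.2% of all genes), and 17 at 2% glucose, 12 of them higher (60.5% and 43.2%). After scaling these were 11 with 8 higher (45% and 20.8% of all genes), and 13 with 6 higher (57% and 26.2%). Between Δ*col-26* and the WT 16 passed without carbon, 9 of them higher (61.6% and 21.2% of all genes), and 12 at 2% glucose, 8 of them higher (60% and 33.5%). On the median-ratio scale 15 passed with 10 higher (57.6% and 27.1% of all genes), and 15 with 8 higher (62.5% and 29.3%).

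Of the genes with the largest such changes, *cpc-2* (NCU05810), which encodes a Gβ-like protein, had 2083 FPKM at 2% glucose and 401 without carbon in the WT, a fall (log2 fold change −2.37) also seen in Δ*col-26* (−2.67) and Δ*rco-3* (−1.48). *ras-1* (NCU08823), which encodes a small GTPase, went from 129 FPKM at 2% glucose to 36.3 without carbon in the WT (−1.80), with −1.18 in Δ*col-26* and −1.32 in Δ*rco-3*. These starvation falls were thus present in all 3 strains, as for *gna-1*. *cre-1* (NCU08807), the carbon catabolite repressor, was at 51.5 FPKM at 2% glucose and 14.1 without carbon in the WT (−1.80), at 90.6 and 62.6 in Δ*col-26* (−0.53) and at 65.0 and 24.3 in Δ*rco-3* (−1.38). The *cre-1* response of Δ*col-26* differed from that of the WT by 1.27 (limma adjusted p = 4.85e-14), and starved Δ*col-26* held 4.45 times the WT level.

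*gpr-3* (NCU09427), a G-protein-coupled receptor gene, rose on starvation in the WT from 10.6 to 23.6 FPKM (1.08) and fell in Δ*col-26* (−0.71) and Δ*rco-3* (−0.31), which held 3.17 and 4.03 times the WT level at 2% glucose. *msn-1* (NCU02671), a zinc-finger regulator, fell on starvation by −1.31 in the WT, −0.95 in Δ*col-26* and −0.55 in Δ*rco-3*. Glucokinase (NCU00575), which phosphorylates glucose, fell in the WT (−0.81) and rose in Δ*col-26* (0.68, or 0.59 after median-ratio scaling), while the rise in Δ*rco-3* (0.25) lay under the median of all genes (0.30) and was lost after scaling (−0.02). *snf4* had 36.9 FPKM at 2% glucose and 40.3 without carbon in the WT (0.13, not passed, but −0.20 and passed after scaling), −0.30 in Δ*col-26*, a fall that passed, and 0.17 in Δ*rco-3*, not passed.

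The low-glucose medium also set the WT apart for *pkac-2* and glucokinase, chosen from this list after their values were seen. Of the 20 listed genes, 11 differed from the WT in the 0.05 *vs.* 0.5% response with each mutant. Over all genes 50.4% did with Δ*rco-3* and 51.1% with Δ*col-26*. With each mutant 2 were DEGs (7.84% and 7.69% of all genes). After median-ratio scaling 12 and 13 passed (47.3% and 45.9% of all genes), and 4 and 3 were DEGs (8.39% and 8.42%). *pkac-2* (NCU00682), the second PKA catalytic subunit gene, stood at 203 FPKM at 0.05% and 68.8 at 0.5% glucose in the WT (1.55), against 60.2 and 61.2 in Δ*col-26* (−0.02) and 51.3 and 44.1 in Δ*rco-3* (0.21). The test of the difference from the WT gave −1.57 and −1.33 (limma adjusted p = 7.18e-15 and 7.74e-14). Glucokinase was at 1405 and 127 FPKM in the WT, and in the mutants at 105 and 97.6, and 93.7 and 86.3. In that medium the WT thus had its lowest *gna-2* and *gna-3* and its highest *pkac-2* and glucokinase levels among the 12 groups.

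Across the 12 group means, the gene most like *gna-2* was *pzl-1* (NCU07489), with a Pearson r of 0.98 among 4754 genes searched. The most similar loci were NCU00877 (r = 0.99) for *prk-10*, NCU06602 (0.99) for *gna-1*, NCU01534 (0.97) for *gna-3*, NCU08713 (0.98) for *cr-1*, NCU07259 (0.96) for *mcb*, NCU06334 (0.91) for *gpr-4* and NCU08067 (0.90) for *pkac-1*. Among the 8 genes, r was 0.85 for *gpr-4* with *cr-1*, 0.74 for *gna-2* with *gna-3*, 0.73 for *mcb* with *prk-10*, 0.02 for *pkac-1* with *prk-10* and −0.50 for *gna-1* with *prk-10*. The points of these correlations share libraries and their scaling, and the values are descriptive.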

How the data were processed

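RNA was sequenced from duplicate cultures of each strain and medium. The limma p-values set a difference between groups against the spread between duplicates, estimated for each gene over all 12 groups together. The deposited FPKM values were made by the authors by trimming with Trimmomatic 0.36, aligning to predicted transcripts of the OR74A genome (NC12) and estimation with RSEM 1.2.8. The aligner is Bowtie2 in the study's methods and HISAT2 2.1.0 in the submitters' processing notes. FPKM give shares of a library, so abundant genes shift all others, and counts, depth in reads and strand were not used here.

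The 24 tables were joined by locus. limma 3.58.1 in R 4.3.3 (lmFit, contrasts.fit, eBayes with a trend) was fitted to log2(FPKM + 1) over 12 groups with 12 residual and 6.31 prior degrees of freedom. The DEG thresholds follow the study's methods. Scripts were tested on simulated data. Symbols and coordinates came from RefSeq. The rule for named genes took all 8 genes, the 2 deleted genes, the 2 loci most like each gene, *snf4*, *cre-1* and the 6 listed genes with the largest DEG changes. Genes, lists and tests were chosen with earlier results of these data known. Alternatives were other pseudocounts (0.1 and 5), filters, scalings, a fit without trend, the groups compared alone, a replicate block and leaving out each library.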

Additional observations from a re-analysis of the deposited data

Results flagged for a closer look

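The responses below differed between a mutant and the WT in a test of the difference itself (limma interaction, adjusted p below 0.001 over all genes). Between no carbon and 2% glucose, the Δ*rco-3* response minus the WT response was 0.35 for *gna-1*, −0.41 for *gna-2*, 0.34 for *cr-1*, 0.36 for *pkac-1*, −0.86 for *mcb* and −1.58 for *prk-10* on the log2 scale. For Δ*col-26* it was −0.91 for *gna-2*, 0.38 for *cr-1*, 0.36 for *pkac-1*, −0.75 for *mcb* and −1.67 for *prk-10*. The Δ*col-26* value for *gna-1*, 0.22, did not pass as deposited. After median-ratio scaling it was 0.47 and passed, as did that of Δ*rco-3* (0.42). Between 0.05 and 0.5% glucose it was 0.38 for *gna-1*, 1.05 for *gna-2* and 1.04 for *gna-3* in Δ*col-26*, and 0.36, 1.01 and 0.93 in Δ*rco-3*. The value of 0.35 for *gna-1* lost its call without replicate 2 of Δ*rco-3* at 2% glucose (0.28).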

How the results depend on the processing

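The scale of the libraries was the choice that mattered most. With median-ratio scaling these log2 values changed sign: *pkac-1* −0.25 for starvation in Δ*rco-3*; *cr-1* −0.34, *pkac-1* −0.21 and *mcb* −0.17 for Δ*rco-3* *vs.* WT at 0.05% glucose, *cr-1* −0.27 and *pkac-1* −0.066 at 0.5%, and *gna-1* −0.051 and *gna-2* −0.019 at 2%. For Δ*col-26* *vs.* WT at 0.05% glucose *gna-1* became −0.11 and *cr-1* −0.29. For Δ*rco-3* *vs.* Δ*col-26*, *cr-1* became −0.20 without carbon, −0.050 at 0.05% and −0.039 at 0.5% glucose, and the Δ*rco-3* *vs.* WT difference in the 0.05 *vs.* 0.5% response of *prk-10* became −0.23. With quantile normalization *cr-1* became −0.21 and *pkac-1* −0.024 for Δ*rco-3* *vs.* WT at 0.05% glucose, *cr-1* −0.26 and *pkac-1* −0.027 at 0.5%, and for Δ*col-26* *vs.* WT at 0.05% *gna-1* −0.058 and *cr-1* −0.21. A further 52 values changed sign under these scalings with no call in either. Median-ratio scaling also lowered the count between the mutants from 27 to 13, and fitting only the groups compared, which leaves fewer samples, lowered the count for Δ*col-26* *vs.* WT from 16 to 9. Other counts of passing values, both directions together, stayed within 1.5 times, but their direction did not: with median-ratio scaling higher and lower values went from 20 and 1 to 10 and 7 for Δ*rco-3* *vs.* WT, from 9 and 7 to 7 and 15 for Δ*col-26* *vs.* WT (6 and 17 with quantile normalization), and lower ones from 2 to 4 for starvation in Δ*rco-3*. Leaving out 1 library kept all called signs, with 41 calls lost and 6 gained over 832 refitted values, and 20 to 22 values passing for Δ*rco-3* *vs.* WT, 14 to 17 for Δ*col-26* *vs.* WT, 23 to 27 between the mutants, 6 for starvation in the WT and 4 to 6 for its difference in Δ*rco-3*.

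With the replicate number as a block, 25 in place of 27 values passed between the mutants (*cr-1* was lost at 0.5 and 2% glucose), and 21 and 16 passed for the mutants *vs.* WT. Deviations of same-numbered libraries correlated between −0.20 and 0.12, so the numbers do not pair the libraries.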
